A study of Mus musculus with 24 samples.

Results

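The genes described are 10 members of the matrix metalloproteinase (Mmp) and tissue inhibitor of metalloproteinase (Timp) families: Mmp2, Mmp3, Mmp7, Mmp8, Mmp9, Mmp10, Mmp13, Mmp14, Timp1 and Timp3. They were chosen by gene symbol, as all probe sets annotated to these symbols on both arrays of the set. This gave 10 of 18193 genes and 17 of 45137 probe sets, of which 16 lay on the 430A array and 1, for Mmp14, on the 430B array.

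Matrix metalloproteinases are zinc-dependent proteases that are made as inactive precursors and, once activated, cut collagens, gelatin, laminin, proteoglycans and many cytokines at or outside the cell surface. Timps are small secreted proteins that bind the active site of these proteases and block it. In inflamed bowel, neutrophils carry Mmp8 and Mmp9 preformed in their granules, mesenchymal cells and macrophages make Mmp3, Mmp10, Mmp13 and Timp1 under cytokine control, and Mmp7 is the form typical of epithelium.

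The study measured RNA of whole colon from BALB/c mice with Affymetrix MOE430 arrays. Mice aged 6 to 8 weeks ate a diet with 2% curcumin, the yellow pigment of turmeric, or a standard diet from 2 days before an enema on day 0, and were killed on day 7. The enema held TNBS (trinitrobenzene sulfonic acid, a hapten that provokes colitis) or was a control enema of unstated content. There were thus 4 groups of 3 samples: curcumin diet with TNBS, curcumin diet with control enema, standard diet with TNBS, and standard diet with control enema. Each group's RNA came from a pool of 3 mice, and whether its 3 samples were pooled separately is not stated. The p-values below therefore measure the spread between these samples, which may be partly technical. The labels also speak of wild-type littermates, but name no mutant.

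The deposited values are signal intensities on a linear scale, scaled to the same trimmed mean on every array (497.832 to 498.27 on the 12 arrays of 430A). On 430A the strongest division of the samples did not follow the groups. The first principal component, with 32.0% of the variance, parted 2 sets of 6 arrays, and arrays of one set correlated at 0.961 on average, those of different sets at 0.929. Set 1 holds curcumin TNBS sample 1, curcumin control samples 2 and 3, standard TNBS samples 2 and 3 and standard control sample 1, and set 2 the other samples. What the sets stand for is not given in the labels. Results are therefore given by limma without a term for the set, by a set-adjusted fit that has one, and as differences within each set. The sets were taken from the same values that the set-adjusted fit tests, so its p-values may be too small. For TNBS on the standard diet, 9.63% of genes of 430A had an unadjusted p below 0.05 in limma without the term and 14.9% with it. On 430B, curcumin TNBS samples 2 and 3 stood apart, with a mean correlation of 0.848 with the other 10 arrays against 0.923 among those 10. Among the genes named here this touches the third probe set of Mmp14, Adamts9 and Adamts12, and some genes inside the marker sums (such as Muc2, Ang4, Marco and Fcgr1). All 13 colon epithelium markers were above the filter, with summed signals of 123308 to 179855 over the 12 samples.

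The genes lie in a few places of the mouse genome. Mmp13, Mmp3, Mmp10, Mmp8 and Mmp7 sit in that order in a cluster of 10 metalloproteinase genes on chromosome 9 (RefSeq, GRCm38.p6), with Mmp12, Mmp1b, Mmp1a, Mmp27 and Mmp20 between them. RefSeq promoters were matched for 8 of the 10 genes, and motifs were searched on both strands in the 250 bases before the annotated start. The AP-1 motif TGANTCA, the letters bound by Fos and Jun dimers, was found in 4 of the 8 (Mmp3, Mmp7, Mmp10 and Mmp13), and in 6.75% of all 32851 promoters. The sequences below show where it lies. Each is the 150 bases just before the start, plus strand, GRCm38.p6, with the AP-1 motif in capitals; Mmp8 is shown as the cluster neighbour and Timp1 as the inhibitor whose signal varied most, both without a match.
Mmp13 (chr9:7272364-7272513): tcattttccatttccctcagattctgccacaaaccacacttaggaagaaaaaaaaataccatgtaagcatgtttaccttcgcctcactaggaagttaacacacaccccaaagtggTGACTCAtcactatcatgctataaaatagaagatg
Mmp3 (chr9:7445672-7445821): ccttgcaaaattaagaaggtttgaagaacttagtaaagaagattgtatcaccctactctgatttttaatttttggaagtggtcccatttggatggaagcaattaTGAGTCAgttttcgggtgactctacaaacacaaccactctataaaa
Mmp10 (chr9:7502192-7502341): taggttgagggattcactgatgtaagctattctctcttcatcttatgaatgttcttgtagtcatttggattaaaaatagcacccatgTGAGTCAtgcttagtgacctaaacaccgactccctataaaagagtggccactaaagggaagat
Mmp7 (chr9:7691940-7692089): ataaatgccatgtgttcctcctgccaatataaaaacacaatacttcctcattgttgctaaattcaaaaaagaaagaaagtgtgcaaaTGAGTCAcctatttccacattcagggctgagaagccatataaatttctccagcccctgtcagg
Mmp8 (chr9:7558279-7558428): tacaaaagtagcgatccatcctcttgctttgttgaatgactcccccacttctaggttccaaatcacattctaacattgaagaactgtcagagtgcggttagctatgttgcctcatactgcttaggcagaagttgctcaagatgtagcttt
Timp1 (chrX:20870016-20870165): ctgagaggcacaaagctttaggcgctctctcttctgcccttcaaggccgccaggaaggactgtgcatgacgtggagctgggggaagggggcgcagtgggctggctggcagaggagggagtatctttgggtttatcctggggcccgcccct

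The AP-1 match began 35 bases before the start in Mmp13, 46 in Mmp3 and 63 in both Mmp10 and Mmp7. The letters TATAAA were found in the same 4 promoters, between the AP-1 match and the start, and in 12.4% of all promoters. Mmp7 had a second TATAAA match further out, at 123 bases, and its other annotated start has no AP-1 match. AGGAAG, a core bound by Ets factors, was found in 7 of the 8 promoters (Mmp10 excepted) and in 29.5% of all, and TTGCNNAA, a C/EBP-type motif, in Mmp3, Mmp7, Mmp8 and Mmp10 and in 9.56% of all. The motifs searched do not overlap in these windows. A match describes letters in the window and is not evidence of a bound site.

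**Figure D1:**
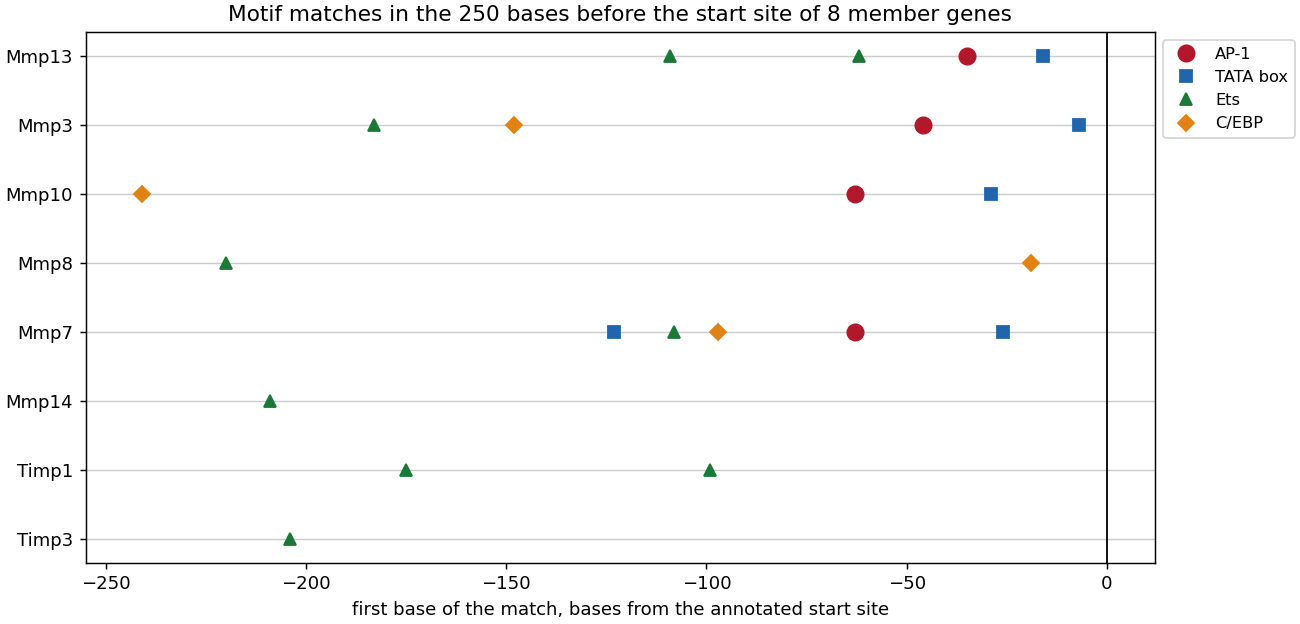
Motif matches in the 250 bases before the annotated start of 8 genes; the horizontal axis is the distance of the first base of a match from the start, in bases, and each mark is 1 match (for Mmp7, at the first of its 2 annotated starts). The 4 AP-1 matches lie 35 to 63 bases before the start, in Mmp13, Mmp3, Mmp10 and Mmp7.

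On the standard diet, TNBS samples had higher signals than control samples for Timp1, Mmp8, Mmp9, Mmp3, Mmp10 and Mmp14: in these 6 of 10 genes all 3 TNBS samples lay above all 3 control samples, against 6.94% of the genes on 430A, and no member lay below (6.36% of genes did). The largest log2 differences were those of Timp1 (2.44 ± 0.38, SE), Mmp10 (1.72 ± 0.41) and Mmp8 (1.32 ± 0.25). None of the 8 members above the filter passed an adjusted p of 0.05 in limma without the array set (0.012% of 8348 genes did), while 5 of the 8 had an unadjusted p below 0.05, against 9.63% of genes. In the set-adjusted fit, 3 of the 8 rose, namely Timp1, Mmp8 and Mmp9, against 0.252% of genes that rose and 0.455% that changed in either direction. Mmp8 and Mmp3 passed the filter only through the standard TNBS samples: without them their mean log2 values were 7.49 and 7.45, below the filter at 7.61. A gene of this kind had to be high in that group to be counted, so the counts over the 8 members are given as descriptions. In the set-adjusted fit without the filter, Timp1 and Mmp8 rose (adjusted p = 0.0472 and 0.0434) and the brighter Mmp9 probe set did not pass (0.0732). The median difference over all 10 members was 0.99, against -0.01 over the 11674 genes of 430A. In whole tissue, more cells of a type and more RNA per cell cannot be told apart.

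On the curcumin diet 4 of the 10 members had a positive difference between TNBS and control samples, against 48.7% of the genes of 430A. No member lay wholly higher in TNBS samples (3.25% of genes did) and 1, Timp1, lay wholly lower (3.64% of genes did). No member was called in limma, with or without the set term, and neither was any of the 8348 genes of 430A (0%). None of the 8 members had an unadjusted p below 0.05, against 2.77% of genes, and the median over the 10 members was -0.01. Differences in log2 ran from -0.79 ± 0.38 for Timp1 to 0.63 ± 0.52 for Mmp7.

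Among TNBS samples, those on curcumin had lower signals than those on the standard diet for 6 of 10 members, Timp1, Mmp8, Mmp9, Mmp3, Mmp10 and Mmp14, with no overlap between the groups (7.61% of genes lay lower, and 6.94% higher). This comparison uses the same 3 standard-diet TNBS samples as the first one, so the lists are not independent. The log2 difference was -2.21 ± 0.38 for Timp1, -1.91 ± 0.41 for Mmp10 and -1.17 ± 0.22 for Mmp9. No member was called without the array set (0.0359% of genes were, and 0.024% were lower), although 5 of 8 had an unadjusted p below 0.05, against 10.4% of genes. In the set-adjusted fit Timp1 fell, alone among the 8, against 0.108% of genes that fell and 0.24% called in either direction. This call was lost without the filter (adjusted p = 0.0662).

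With control enemas, log2 differences of curcumin against standard diet ran from -0.78 ± 0.52 for Mmp7 to 1.01 ± 0.38 for Timp1. Of the 10 members 5 were positive, against 49.5% of the genes of 430A, with a median of 0.05. Mmp8 was the single member without overlap, higher on curcumin (3.12% of genes), and no member lay wholly lower (3.31%). No member and none of the 8348 genes of 430A was called in limma with or without the set term (0%), and 1 member, Timp1, had an unadjusted p below 0.05, against 3.04% of genes. The interaction of diet and enema, which asks whether the TNBS difference itself differs between diets, was called for no member with or without the set term (0% of the genes of 430A). Over the probe sets of both arrays, 1 was called for the diets under control enemas and 9 for the interaction. Its unadjusted p was below 0.05 for Timp1, Mmp8 and Mmp9, against 9.89% of genes.

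**Figure D2:**
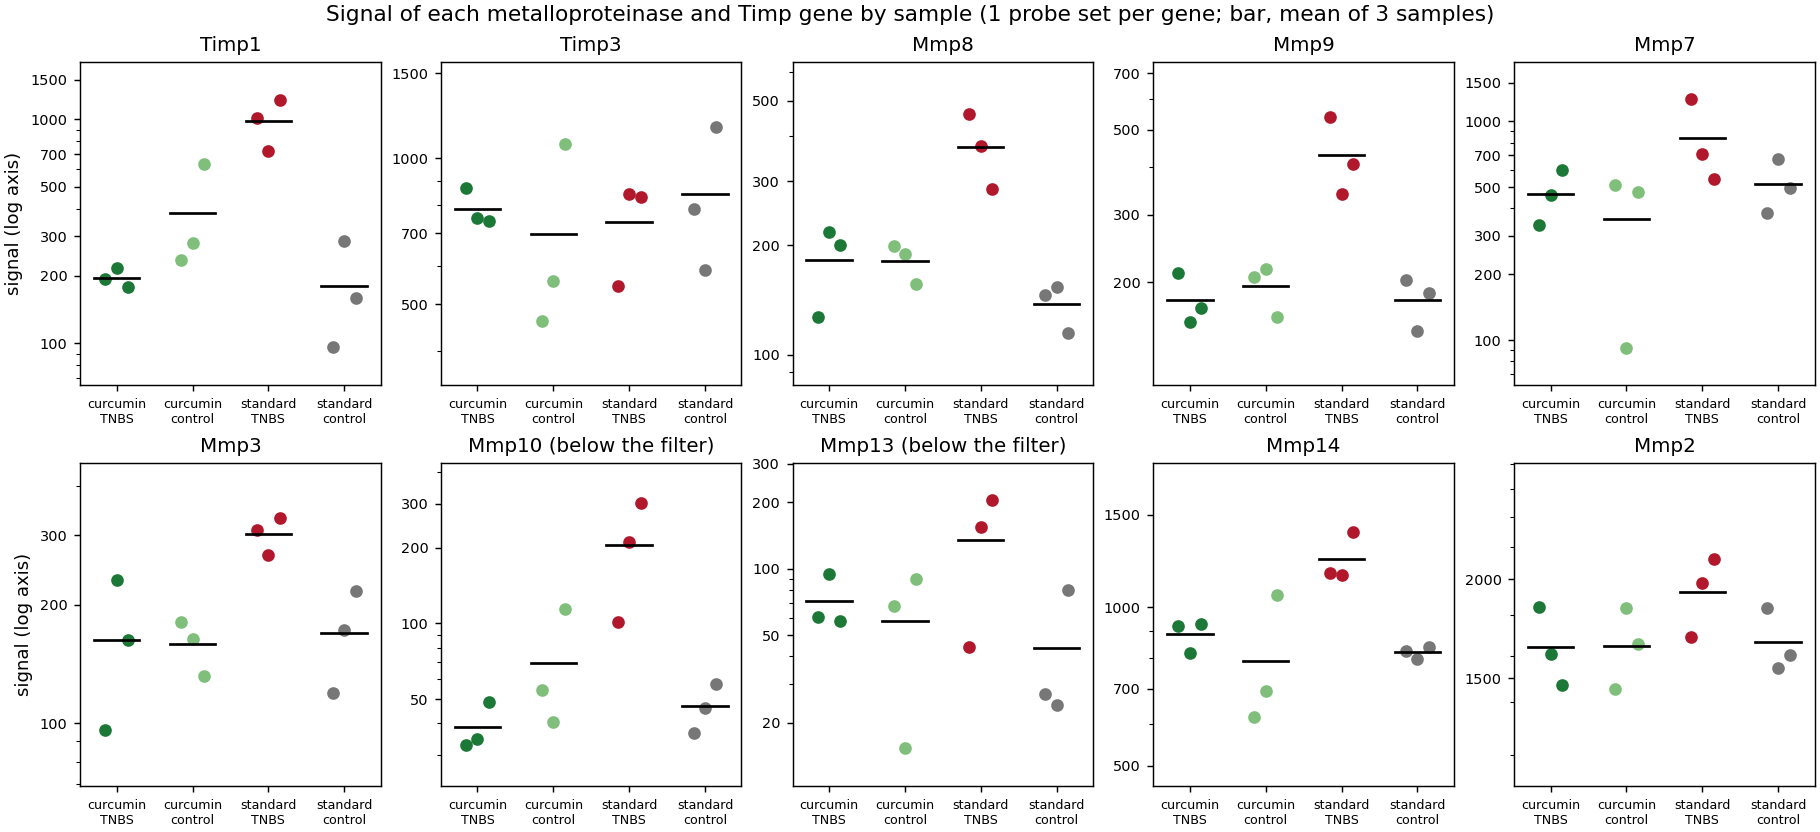
Signal of each of the 10 genes (vertical log axes, authors' scaled intensity) in the 3 samples of each group; points are samples and bars group means. Standard-diet TNBS samples lie above all other samples for Timp1, Mmp8, Mmp9, Mmp3 and Mmp14.

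**Figure D3:**
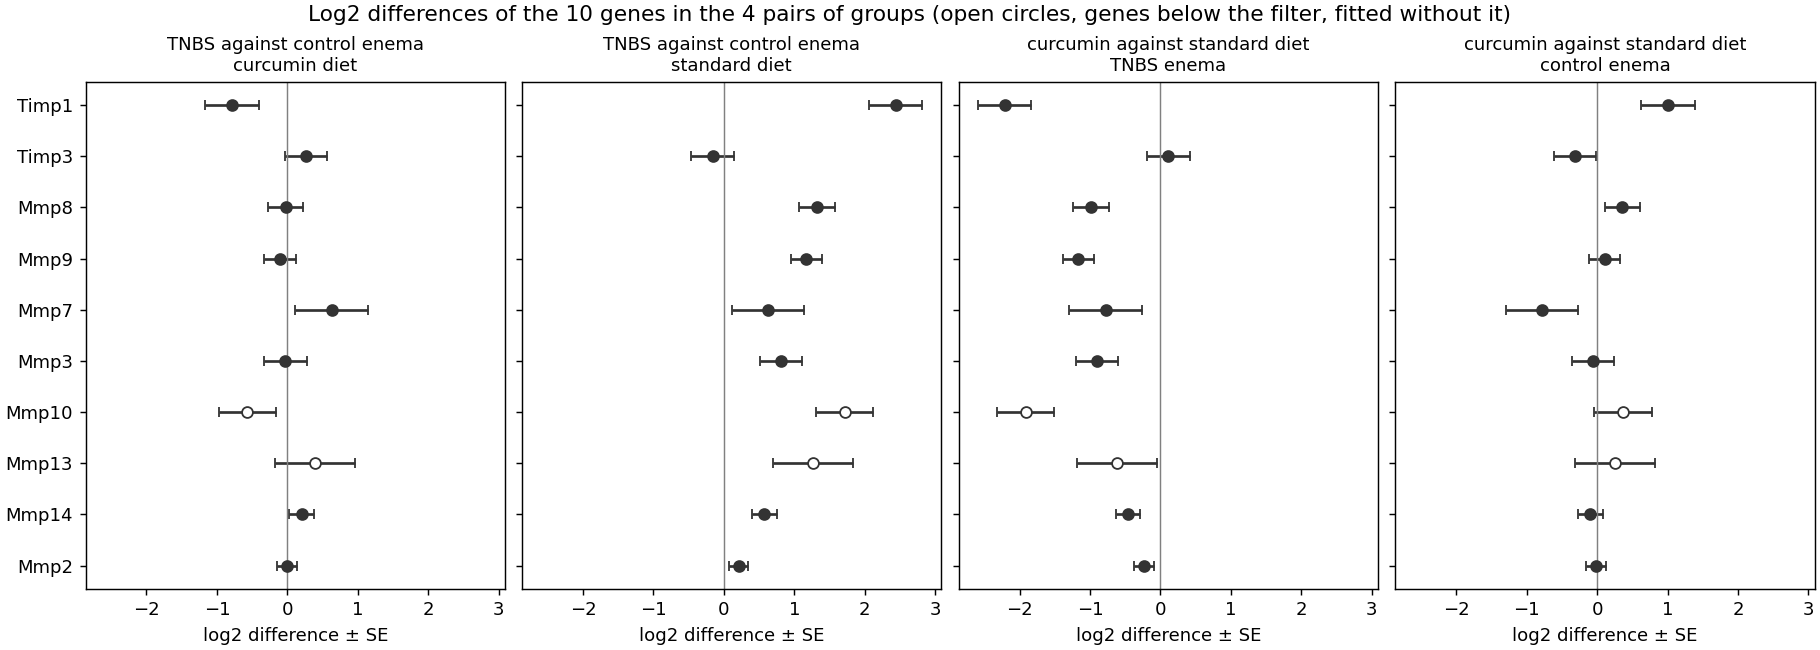
Log2 differences with standard errors from limma (horizontal axes) for the 10 genes in the 4 pairs of groups; open circles are Mmp10 and Mmp13, which lay below the filter and were fitted without it. Values for Timp1 run from 2.44 for TNBS against control on the standard diet to -2.21 for curcumin against standard diet under TNBS.

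Timp1 is the inducible, secreted inhibitor, which blocks most metalloproteinases and also acts on cells as a growth factor. Its signal was 194, 216 and 178 in the curcumin TNBS samples, 237, 281 and 629 in the curcumin control samples, 1017, 722 and 1221 in the standard TNBS samples, and 95.8, 287 and 160 in the standard control samples. The 3 standard TNBS samples were the highest of the 12, the curcumin TNBS samples were the tightest group, and curcumin control sample 3 stood between. By mean, the order was standard TNBS (987 ± 251, SD), curcumin control (382 ± 215), curcumin TNBS (196 ± 19.3) and standard control (181 ± 97.3), with n = 3 each, and the last of these overlapped both groups next above it.

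The TNBS difference of Timp1 on the standard diet, 2.44 on the log2 scale or 5.41-fold, had an adjusted p of 0.0593 in limma. In the set-adjusted fit it was 2.47 ± 0.39 with an adjusted p of 0.0376, and within the sets it was 3.10 and 2.16. Under TNBS, curcumin against standard diet gave an adjusted p of 0.0907, or 0.0446 for a difference of -2.24 ± 0.39 in the set-adjusted fit, a signal 4.74-fold lower (0.0662 in that fit without the filter), and the differences within the sets were -2.19 and -2.28. Both differences thus had the same direction in each set.

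On the curcumin diet Timp1 was lower in all 3 TNBS samples than in all 3 control samples, by -0.79 ± 0.38 (adjusted p = 0.9997), which did not pass the test. With control enemas the curcumin samples gave 1.01 ± 0.38 against standard (adjusted p = 0.998), with overlapping groups, since standard control sample 2, at 287, exceeded 2 of the curcumin samples. The interaction was -3.22 ± 0.54 with an adjusted p of 0.155, and -3.28 ± 0.57 with 0.0949 in the set-adjusted fit.

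Timp3, the inhibitor that binds to the extracellular matrix, showed no such pattern. Its probe set with the highest mean read 867, 753 and 741 in curcumin TNBS, 462, 557 and 1070.0 in curcumin control, 544, 842 and 830.2 in standard TNBS and 787, 587 and 1162 in standard control samples, and every pair of groups overlapped. The difference was -0.16 ± 0.30 for TNBS against control on the standard diet and 0.11 ± 0.30 for curcumin against standard diet under TNBS (adjusted p = 0.927 and 0.941). Over its 4 probe sets the differences ran from -0.16 to 0.05 in the first pair and from -0.12 to 0.33 in the second. The group order of Timp3 therefore did not exceed the spread between samples.

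Mmp8, the neutrophil collagenase, cuts fibrillar collagen. Its signal was 127, 218 and 200.2 in curcumin TNBS, 199, 189 and 157 in curcumin control, 458, 375 and 286 in standard TNBS and 146, 153 and 115 in standard control samples. The standard TNBS samples lay above the other 9. All curcumin control samples lay above all standard control samples, and the curcumin TNBS samples overlapped both of these groups. The standard-diet TNBS difference of 1.32, or 2.50-fold, had an adjusted p of 0.0974, and 0.0376 for 1.42 ± 0.21 in the set-adjusted fit. Within the sets it was 1.09 and 1.67. Curcumin against standard diet under TNBS was -0.98 ± 0.25 (adjusted p = 0.186, and 0.0590 with the set), at -1.27 and -1.07 within the sets.

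Mmp9, gelatinase B, cuts denatured collagen and basement membrane collagen, and comes from neutrophils and macrophages. Its brighter probe set read 211, 158 and 171 in curcumin TNBS, 207, 217 and 162 in curcumin control, 541, 339 and 406 in standard TNBS and 203, 149.6 and 187 in standard control samples. Only the standard TNBS samples exceeded 217. The difference on the standard diet, 1.17 ± 0.22 or 2.25-fold, had an adjusted p of 0.0974, and 0.0485 in the set-adjusted fit (0.0732 in that fit without the filter), at 0.82 and 1.60 within the sets. Under TNBS, curcumin against standard diet was -1.17 ± 0.22 (adjusted p = 0.111, and 0.0538 with the set).

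The second probe set of Mmp9 lay below the filter, and read 79.1, 56.1 and 34.4 in curcumin TNBS, 32.2, 48.1 and 33.1 in curcumin control, 379, 133 and 432 in standard TNBS and 26.4, 33.5 and 32.4 in standard control samples. Fitted without the filter, its difference on the standard diet was 2.67 ± 0.41 (adjusted p = 0.0520, and 0.0365 with the array set), larger than that of the brighter probe set and in the same direction. Curcumin against standard diet under TNBS was -2.08 ± 0.41 for it (adjusted p = 0.135).

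Mmp3 and Mmp10 are the stromelysins, which cut proteoglycans, laminin and fibronectin and activate other metalloproteinases. Mmp3 read 96.0, 231 and 163 in curcumin TNBS, 181, 164 and 132 in curcumin control, 309.8, 268 and 332 in standard TNBS and 119.7, 172 and 217 in standard control samples. All standard TNBS samples exceeded all others. The difference on the standard diet was 0.81 ± 0.30 (adjusted p = 0.398), or 0.97 ± 0.23 (0.0871) with the array set, and that of curcumin against standard diet under TNBS was -0.90 ± 0.30 (0.315), or -1.06 ± 0.23 (0.0692) with the set. Within the sets these were 1.21 and 0.64, and -1.49 and -0.63. Neither passed the test.

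Mmp10 lay below the filter, with 32.7, 34.5 and 48.6 in curcumin TNBS, 54.5, 40.4 and 114 in curcumin control, 102, 211 and 301 in standard TNBS and 36.6, 46.1 and 57.4 in standard control samples. Only curcumin control sample 3 reached into the range of the standard TNBS samples. Fitted without the filter, the standard-diet TNBS difference was 1.72 ± 0.41 (adjusted p = 0.200, and 0.128 with the array set), at 2.35 in set 1 and 0.80 in set 2. For curcumin against standard diet under TNBS it was -1.91 ± 0.41 (adjusted p = 0.183, and 0.0953 with the set), at -2.46 and -1.04. The size of both differences thus depended on the set more than for Timp1.

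Mmp13, the main interstitial collagenase of mice, was the other gene below the filter. It read 60.7, 95.0 and 57.7 in curcumin TNBS, 68.0, 15.3 and 90.3 in curcumin control, 44.1, 154 and 205 in standard TNBS and 27.0, 24.0 and 79.7 in standard control samples. The groups overlapped, since standard TNBS sample 1 lay below standard control sample 3. The difference on the standard diet was 1.26 ± 0.57 (adjusted p = 0.662, without the filter), with 2.17 in set 1 and -0.04 in set 2. Under TNBS, curcumin against standard diet was -0.62 ± 0.57 (adjusted p = 0.889), at -1.34 in set 1 and 0.59 in set 2.

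Mmp7, matrilysin, is made by epithelial cells and in mouse small bowel activates the defensins of Paneth cells. Its signal was 335, 461 and 598 in curcumin TNBS, 511, 92.0 and 474 in curcumin control, 1261, 709 and 544 in standard TNBS and 382, 676 and 496 in standard control samples. Every pair of groups overlapped, and single samples (1261 in standard TNBS, 92.0 in curcumin control) set much of the group means. The TNBS difference was 0.63 ± 0.52 on both diets (adjusted p = 0.9997 on curcumin and 0.782 on the standard diet). In the set-adjusted fit it was 0.34 ± 0.41 on curcumin (adjusted p = 0.932) and 0.91 ± 0.41 on the standard diet (0.343). Curcumin against standard diet under TNBS was -0.78 ± 0.52 (adjusted p = 0.680), or -1.06 ± 0.41 (0.243) in the set-adjusted fit. Summed signals of 6 Paneth cell genes, of which 5 were above the filter, ran from 11069 to 18383 in curcumin TNBS, 8437.5 to 15134 in curcumin control, 23000.5 to 30699 in standard TNBS and 16239 to 22804 in standard control samples. Among them Pla2g2a, a secreted phospholipase, rose with TNBS on the standard diet in the set-adjusted fit (2.82 ± 0.53, adjusted p = 0.0485). Whether it passed the filter only through the standard TNBS samples was not tested. Without the set term, 3 of the 5 tested genes were positive in that pair, against 48.1% of all tested genes, with a median of 0.21. Whether Paneth cells were present in these colon samples, and their part in the Mmp7 values, was not tested.

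Mmp14 is the membrane-bound metalloproteinase that, with Timp2, activates the precursor of Mmp2 at the cell surface. Its brightest probe set read 923, 817 and 927 in curcumin TNBS, 619, 692 and 1057 in curcumin control, 1161, 1151 and 1390.3 in standard TNBS and 824, 798 and 841 in standard control samples. The standard TNBS samples were the highest 3 of the 12 and the standard control samples varied little. The TNBS difference on the standard diet was 0.57 ± 0.17 (adjusted p = 0.280, and 0.174 with the array set), at 0.61 and 0.49 within the sets, and curcumin against standard diet under TNBS was -0.46 ± 0.17 (adjusted p = 0.372). The other 430A probe set gave 0.41 ± 0.21 and -0.49 ± 0.21 in these pairs. The 430B probe set gave 0.72 ± 0.27 and -0.30 ± 0.27, the second resting on the pair of curcumin TNBS arrays that stood apart. The direction was the same in all 3 probe sets, and none passed the test. The 430B probe set overlapped between the diets under TNBS, at 496 to 874 on curcumin and 657 to 908 on the standard diet, where both 430A probe sets did not.

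Mmp2, gelatinase A, is made steadily by fibroblasts and smooth muscle. Its brighter probe set read 1844, 1607 and 1471 in curcumin TNBS, 1451, 1837 and 1655 in curcumin control, 1691, 1979 and 2120.1 in standard TNBS and 1841, 1545 and 1606 in standard control samples, with overlap in every pair. The differences were 0.21 ± 0.14 for TNBS against control on the standard diet (adjusted p = 0.710) and -0.23 ± 0.14 for curcumin against standard diet under TNBS (adjusted p = 0.621). The second probe set read 1226, 1125 and 1237 in curcumin TNBS, 897, 940.2 and 1495 in curcumin control, 1498, 1499 and 2157 in standard TNBS and 1226, 1036 and 1348 in standard control samples. Here the standard TNBS samples lay above both the standard control and the curcumin TNBS samples, at 0.49 ± 0.20 and -0.50 ± 0.20 (adjusted p = 0.456 and 0.413), so the 2 probe sets of Mmp2 disagreed on overlap.

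**Figure D4:**
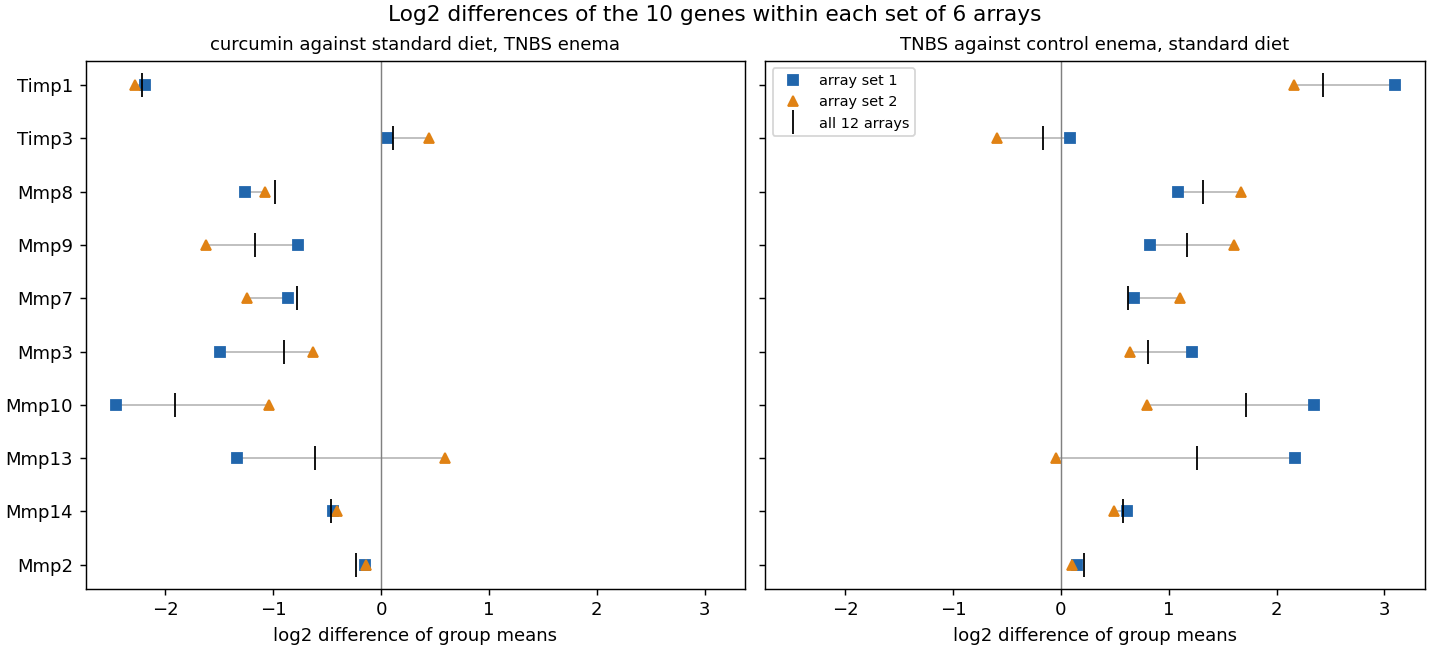
Log2 differences of group means (horizontal axes) for the 10 genes within array set 1 (squares), within set 2 (triangles) and over all 12 arrays (bars), for curcumin against standard diet under TNBS and for TNBS against control on the standard diet. Mmp13 turns in set 2 in both pairs (0.59 and -0.04), Timp3 differs in sign between the sets in the TNBS pair, and the other 8 genes have the same sign in both sets.

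The other genes of the pathway were counted from lists. Whether a gene of these lists, or of the marker lists, passed the filter only through the standard TNBS samples was not tested. Their calls are therefore given as descriptions. For TNBS on the standard diet, 0.012% of the genes of 430A were called without the set term and 0.455% with it, so that a list with no call differs little from this background, and 48.1% of all tested genes had a positive difference. Of 15 further metalloproteinases, 10 were on the arrays and only Mmp24 was above the filter, with a TNBS difference of 0.16 ± 0.30 on the standard diet (adjusted p = 0.923). Mmp12, the macrophage elastase, read 19.3 to 40.5 in curcumin TNBS, 12.6 to 33.8 in curcumin control, 19.4 to 26.3 in standard TNBS and 14.7 to 26.3 in standard control samples, and was not tested. Its groups overlapped throughout.

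Of the other inhibitors, 3 of 5 measured genes were tested and none was called. Timp2, which inhibits Mmp2 and helps Mmp14 to activate it, gave 1489 ± 213 in curcumin TNBS, 1499 ± 245 in curcumin control, 1486 ± 224 in standard TNBS and 1721 ± 323 in standard control samples (SD, n = 3 each), a TNBS difference of -0.20 ± 0.18 on the standard diet (adjusted p = 0.798). Serpina3n, a serine protease inhibitor, read 61.8 to 240.4 in curcumin TNBS, 61.3 to 1132 in curcumin control, 1100 to 1382 in standard TNBS and 44.3 to 212 in standard control samples. Its differences of 3.36 ± 0.87 for TNBS on the standard diet and -3.31 ± 0.87 for curcumin under TNBS did not pass (adjusted p = 0.182 and 0.191), and 1 curcumin control sample lay in the range of the standard TNBS samples.

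Of 8 activators of metalloproteinase precursors, 4 were tested and none was called. Plat, the tissue plasminogen activator, gave 0.49 ± 0.16 for TNBS on the standard diet and Furin, which cuts the Mmp14 precursor inside the cell, 0.34 ± 0.13 (adjusted p = 0.334 and 0.421). Among 13 tested Adam and Adamts proteases, relatives that shed surface proteins or cut proteoglycans, 9 had a positive difference in that pair and none was called. Adamts9 and Adamts12, both on 430B, had the smallest p, at 0.67 ± 0.17 and 0.67 ± 0.26 (adjusted p = 0.465 and 0.846).

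Among transcription factors that bind the AP-1 and Ets motifs, 10 of 11 were tested and none was called in any pair. Jun gave -0.36 ± 0.14 and Ets1 0.26 ± 0.20 for TNBS on the standard diet (adjusted p = 0.441 and 0.762). Of the 10 tested factors, 7 had a positive difference in that pair, with a median of 0.09, against 48.1% of all tested genes. Jun thus differed in sign from most of the list. For curcumin against standard diet under TNBS, 1 of the 10 was positive, with a median of -0.29, against 49.6% of all tested genes. The signal of Jun was 1042 to 1452 in curcumin TNBS, 992 to 1175 in curcumin control, 856 to 1054 in standard TNBS and 1177 to 1349 in standard control samples.

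Of 13 cytokines known to act on these genes, 5 were tested. Il1b, which induces Mmp3, Mmp9, Mmp10, Mmp13 and Timp1 in many cells, read 225 to 430.1 in curcumin TNBS, 255 to 326 in curcumin control, 671 to 1370.1 in standard TNBS and 266 to 302 in standard control samples. Its TNBS difference on the standard diet was 1.63 ± 0.27 (adjusted p = 0.0593), and it rose in the set-adjusted fit, by 1.69 ± 0.26 (0.0376). Under TNBS it fell on curcumin in the set-adjusted fit (-1.57 ± 0.26, adjusted p = 0.0426), as did Tgfb1, which induces Timp1 and represses several metalloproteinases (-0.76 ± 0.14, 0.0460). Of the genes of 430A, 0.108% fell in that fit. Without the set term, 3 of the 5 tested cytokines had a positive difference in this pair, with a median of 0.14. Tnf gave -0.12 ± 0.34 for TNBS on the standard diet (adjusted p = 0.954).

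RNA signals of the matrix proteins that these enzymes cut differed in the same direction as that of Mmp14, and the proteins themselves were not measured. All 21 tested substrate genes had a positive TNBS difference on the standard diet, with a median of 0.65, where 48.1% of all tested genes were positive and the median was -0.01. Col12a1, a fibril-associated collagen, and Sparc, a collagen-binding protein, rose in the set-adjusted fit (2.23 ± 0.43 and 0.80 ± 0.15, adjusted p = 0.0485 for both). No substrate gene was called without it, as with Col1a1 (0.87 ± 0.27, adjusted p = 0.290) and Col3a1 (0.38 ± 0.13, 0.357), the chains of the main fibrillar collagens. Under TNBS, 2 of the 21 were positive in curcumin against standard diet, with a median of -0.52, and none was called.

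Among markers of cells that can make these enzymes, the summed neutrophil and macrophage signals were highest in the standard TNBS samples, while few single genes passed the test. The summed signal of 12 neutrophil genes was 2667 to 4454 in curcumin TNBS, 3011 to 4046 in curcumin control, 6729.5 to 11731 in standard TNBS and 3018.5 to 3711 in standard control samples. Much of this lay in S100a8 and S100a9, calprotectin subunits of neutrophils, at 1431 to 2989 and 1273 to 3459.9 in standard TNBS and at most 114 and 54.1 in standard control samples. On curcumin they reached at most 212 and 232 in TNBS and 125 and 147 in control samples. Both were below the filter on the mean over all samples. Ngp, a neutrophil granule protein, rose on the standard diet in the set-adjusted fit (1.26 ± 0.17, adjusted p = 0.0320), the 1 of 6 tested neutrophil genes to do so, and Ngp and Csf3r, the receptor for the granulocyte growth factor, fell on curcumin under TNBS in the same fit (-1.45 ± 0.17 and -1.82 ± 0.32, adjusted p = 0.0102 and 0.0446). Whether Ngp and Csf3r passed the filter only through the standard TNBS samples, as Mmp8 and Mmp3 did, was not tested. The part of these cells in the values of Mmp8, Mmp9 and Timp1 was not tested either.

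The 14 monocyte and macrophage genes summed to 10691 to 11926 in curcumin TNBS, 10186 to 12302 in curcumin control, 14255 to 17542 in standard TNBS and 10321 to 11378 in standard control samples. Of the 13 tested, all had a positive TNBS difference on the standard diet (48.1% of all tested genes did), and 1, Tyrobp, an adaptor of myeloid receptors, rose in the set-adjusted fit (0.81 ± 0.14, adjusted p = 0.0457). The 12 fibroblast genes summed to 28463.5 to 32181 in curcumin TNBS, 24609.6 to 29288 in curcumin control, 30786 to 39600.4 in standard TNBS and 27343 to 29002 in standard control samples, with 8 of 12 TNBS differences positive on the standard diet, a median of 0.11 and none called. Under TNBS the fibroblast median was -0.16 for curcumin against standard diet. Col1a1, Col1a2, Col3a1, Col6a3 and Dcn are in both the fibroblast and the matrix substrate lists, so these lists are not independent. Smooth muscle genes had 2 of 9 positive TNBS differences on the standard diet, with a median of -0.08.

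Genes of 2 other tissues also varied between the samples, with none called. The 9 pancreas acinar genes summed to 3221 to 97505 in curcumin TNBS, 3023 to 57040.1 in curcumin control, 44101 to 116204 in standard TNBS and 3185 to 124347 in standard control samples. For TNBS on the standard diet 8 of the 9 were positive, with a median of 1.92. For curcumin against standard diet under TNBS it was 1 of the 9, with a median of -2.72. These are the directions of most members, but the sums overlapped in both pairs and varied widely within groups. Standard control sample 1 had 3185, while sample 2, at 124347, exceeded every standard TNBS sample. Curcumin TNBS sample 1 had 97505 and sample 2 had 3221. The 6 tested adipocyte genes went the other way, with 0 positive and a median of -0.53 in the first pair and 6 positive and a median of 0.59 in the second. The part of either tissue in the members' values was not tested.

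**Figure D5:**
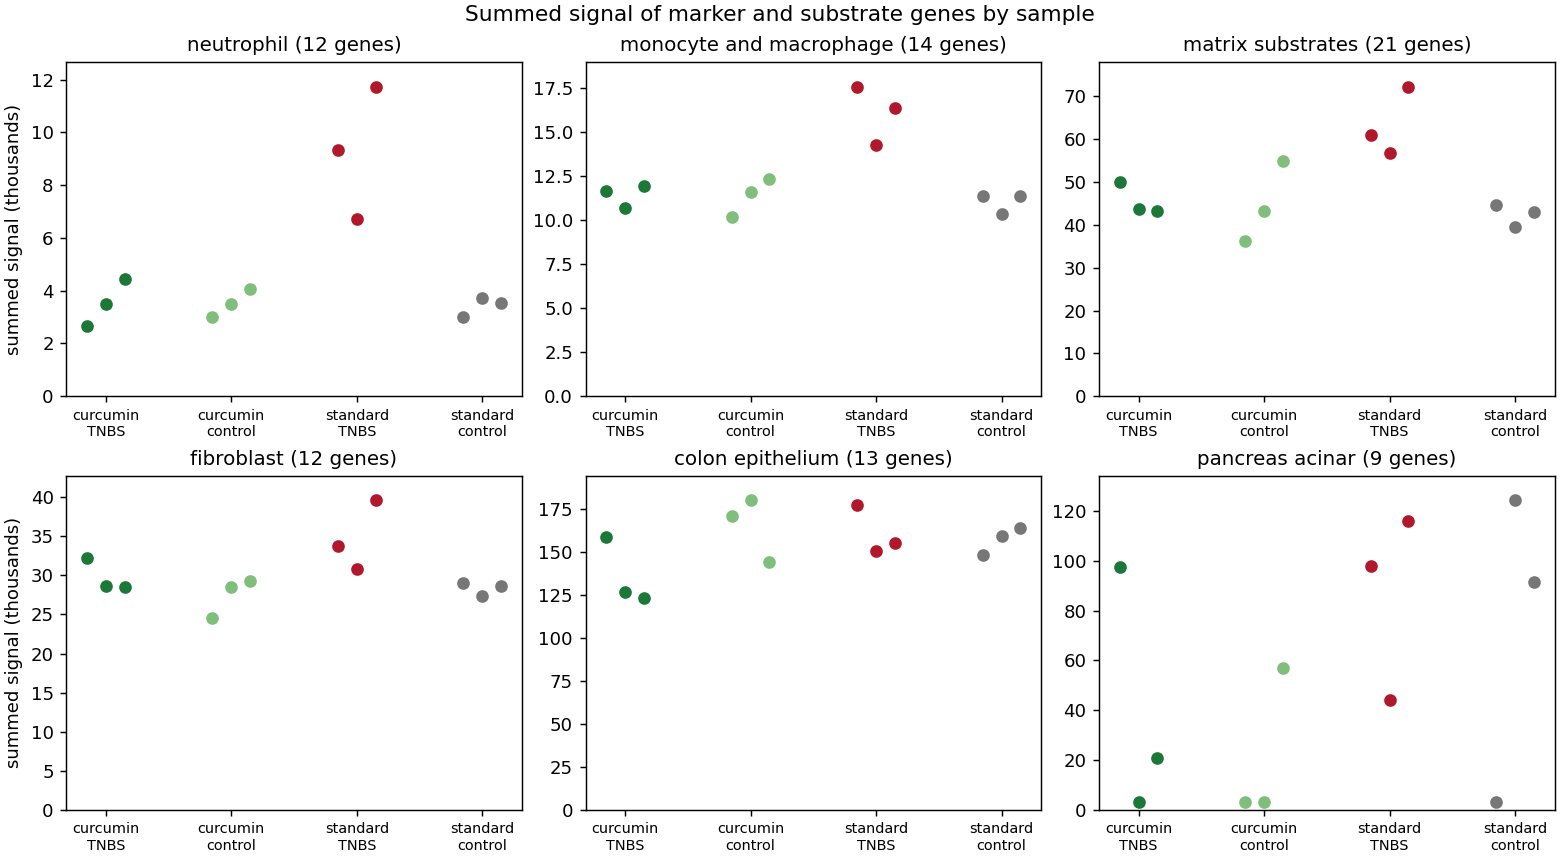
Summed signal (vertical axes from 0, scaled as printed on them) of neutrophil, macrophage, matrix substrate, fibroblast, colon epithelium and pancreas acinar genes in the 3 samples of each group. The standard-diet TNBS samples lie above all others for neutrophil (6729.5 to 11731 as a plain sum) and macrophage genes (14255 to 17542), and the groups overlap for colon epithelium genes.

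The genes whose log2 values were most like each member over the 12 arrays of 430A are given as a description. All 12 points share the 4 groups and both array sets, and the search ran over 8347 other genes. Timp1 was closest to Lcn2, Asns and Reg3g (Pearson's r of 0.944, 0.935 and 0.929), and Mmp14 to Igf1, Col5a2 and Col4a1 (0.977, 0.966 and 0.959). Mmp9 was closest to Sulf2, Arhgdib and Tyrobp (0.940, 0.908 and 0.902), Mmp8 to Arhgdib, D17H6S56E-5 and Eln (0.878, 0.863 and 0.853), and Mmp3 to Slc25a30, Ngp and Nlrp3 (0.876, 0.867 and 0.865). Mmp10, over 8348 genes, was closest to Osmr, Grem1 and Asns (0.955, 0.946 and 0.894).

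The remaining members had these neighbours. Mmp7 was closest to Pmepa1, Gfap and Efl1 (0.897, 0.879 and 0.878), and Mmp13 to Acer2, Vopp1 and Ntpcr (0.920, 0.846 and 0.835). Mmp2 was closest to Myc, Ifnar2 and Ctsb (0.948, 0.935 and 0.931), and Timp3 to Fam98a, Enoph1 and Ube2d1 (0.891, 0.870 and 0.864). With the mean of each array set taken out, the first-named gene kept an r of 0.941 for Timp1, 0.974 for Mmp14, 0.949 for Mmp9 and 0.954 for Mmp10, and 0.857 for Mmp2.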

How the data were processed

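The deposited values of both array types are signal intensities on a linear scale, produced by GCOS, of unstated version, as the submitters' processing notes list, and scaled to a common trimmed mean, as the values show. Control probe sets were left out. From these, log2(signal + 16) was computed, and on each array type the probe sets with a mean above the 40th percentile were tested: 13575 of 22626 on 430A (a mean signal of about 180) and 13506 of 22511 on 430B. Differences on this scale understate the change of dim genes. limma 3.58.1 (R 4.3.3; lmFit, contrasts.fit, eBayes with a trend) was fitted to all 4 groups together, with 8 residual degrees of freedom (7 with the array set), and p-values were adjusted by Benjamini-Hochberg over each array type, with a threshold of 0.05. A gene is represented by its tested probe set with the highest mean. With 3 arrays per group the number of arrays sets the precision, and standard errors of a difference had a median of 0.198 on 430A. All pairs of arrays held different values.

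Genes were named from the platform annotation: 20380 probe sets of 430A have 1 symbol, 691 several and 1555 none. The members and lists were chosen with earlier results of these data known. The genes named are all 10 members; of the other lists, the genes called in any fit and otherwise the 2 with the smallest p in the first comparison; always Il1b, Tnf, Col1a1, Col3a1, S100a8, S100a9, Timp2 and Mmp12; and the 3 genes most like each member. Alternatives were the pseudocount, the filter, quantile normalization, median centring, eBayes without a trend, the array set as a term, averaging the probe sets of each gene, fits on only the groups compared, 430B without the arrays that stood apart, and leaving out each sample; the array set with no filter was added after seeing the data. The fit was also run on simulated data with independent noise and no array set effect. That run therefore does not cover the division of the 430A arrays.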

Additional observations from a re-analysis of the deposited data

Results flagged for a closer look

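For 2 of the genes, every sample of one pair of groups moved one way and every sample of the other pair the opposite way, a pattern whose difference was not tested by this criterion. Timp1 was higher in all standard-diet TNBS samples than in all standard-diet control samples, by 2.44 on the log2 scale. It was lower in all curcumin-diet TNBS samples than in all curcumin-diet control samples, at -0.79. Mmp8 was lower in all curcumin samples than in all standard-diet samples under TNBS, at -0.98, and higher in all curcumin samples under the control enema, at 0.36. The separate test of the interaction in limma gave adjusted p = 0.155 for Timp1 and 0.261 for Mmp8.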

How the results depend on the processing

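For TNBS against control on the standard diet the main count of members called was 0, and it became 1 with a pseudocount of 64, 2 with quantile normalization, 3 with the array set as a term, 1 with averaged probe sets and 1 on the groups compared alone. Timp1 was called in each of these, Mmp8 with quantile normalization and the array set, and Mmp9 with the array set. With the array set and no filter together, a setting chosen after seeing the data, it was 2 (Timp1 and Mmp8), and 0 in the other comparisons. For curcumin against standard diet under TNBS the count of 0 became 1, Timp1, with the array set, the mean of probe sets and the groups compared alone. Over the planned settings the adjusted p in the first pair ran from 0.0315 to 0.0795 for Timp1, 0.0315 to 0.117 for Mmp8 and 0.0485 to 0.169 for Mmp9, and for Timp1 in the other pair from 0.00961 to 0.107. The share of all genes called was computed only for the main fit and for the array set with the filter. It was 0.012% and 0.455% of the genes of 430A in the first pair, and 0.0359% and 0.24% in the other. The member counts in the other settings therefore stand without a background. The causes were not tested. Leaving out 1 sample gave 0 to 2 members in the first pair, the calls coming without curcumin control sample 1 (Timp1) or 3 (Timp1 and Mmp9), and 0 to 1 in the other, without curcumin control sample 3 (Timp1). In the remaining comparisons the member count was 0 in every setting and left-out sample.

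Counts over all probe sets of both arrays, of which 27081 were tested in the main fit, moved more. For TNBS on the standard diet the 2 calls became 11 with a pseudocount of 64, 11 with no filter, 14 with quantile normalization, 6 with centring, 64 with the array set, 36 with the array set and no filter, and 49 on the groups compared alone, and 1 to 71 with a sample left out (71 without curcumin control sample 3). For TNBS on curcumin the 55 calls became 27 with a pseudocount of 1, 25 with no filter (25 with the array set too), 8 with the filter at the 60th percentile, 97 with centring, 12 without a trend, 0 without the 430B arrays that stood apart and 1 on the groups compared alone, and 3 to 2743 with a sample left out. For curcumin under TNBS the 218 calls became 100 with no filter (116 with the array set too), 41 without a trend, 7 without those 430B arrays and 45 on the groups compared alone, and 5 to 2620 with a sample left out. For curcumin under control enemas 1 call became 0 with the filter at the 60th percentile, without those 430B arrays and on the groups compared alone, and 0 to 4 with a sample left out. For the interaction 9 calls became 4 with no filter (4 with the array set too), 5 with centring, 5 without a trend and 1 without those 430B arrays, and 3 to 1399 with a sample left out. The values of 2743, 2620 and 1399 came without curcumin TNBS sample 1, which leaves the 430B arrays that stood apart as that group.

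Signs turned for some differences that had not passed the test. Mmp2 for TNBS on curcumin was 0.00675 with quantile normalization, 0.0793 with the array set and 0.0686 with the mean of probe sets; Mmp2 for curcumin under control enemas was 0.0299 with centring; Mmp3 there was 0.0940 with the array set. The Mmp7 interaction was -0.0768 with a pseudocount of 64, -0.0248 with quantile normalization, -0.0294 with centring and -0.57 with the array set. The values with the array set were the same without the filter. With a sample left out, signs turned for Timp3 (-0.392 to 0.0905 for TNBS on the standard diet, -0.0887 to 0.219 for curcumin under TNBS), for Mmp2 (-0.0930 to 0.0754), Mmp3 (-0.30 to 0.27), Mmp7 (-0.12 to 1.03) and Mmp8 (-0.16 to 0.20) for TNBS on curcumin, for Mmp2 (-0.0974 to 0.0711), Mmp3 (-0.27 to 0.12), Mmp9 (-0.00756 to 0.226) and Mmp14 (-0.319 to 0.0587) for curcumin under control enemas, and for the Mmp7 interaction (-0.74 to 0.40). No paired analysis was made, because the labels number the samples but give no pairing between samples of different groups. Mmp10, Mmp13 and the second Mmp9 probe set have signals too low for the filter.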
